A study of Mus musculus with 20 samples.

Results

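The collagen gene family was followed in whole lungs of C57BL/6 mice in 4 groups. VIPKO mice, labelled as a knockout of the gene for vasoactive intestinal peptide, breathed 10% oxygen for 4 weeks (VIPKO hypoxia, 5 libraries) or stayed in room air with 21% oxygen (VIPKO normoxia, 4 libraries). Wild-type (WT) mice were treated in the same 2 ways (WT hypoxia, 5 libraries, and WT normoxia, 6 libraries). The members were the genes whose name is Col, a number, the letter a and a number, which gave 43 of 30691 named genes. They were grouped by the kind of assembly that their protein forms. There were 11 fibrillar, 8 basement membrane, 6 microfibrillar, 8 fibril-associated (FACIT), 3 short-chain network and 4 transmembrane collagen genes and 3 others. Col9a1 was not analysed here. The labels call the VIPKO samples a knockdown in 1 field and a knockout in their titles, and do not say which cells lost the gene, so the model is taken as a whole-animal one only by its name. Nothing in the labels ties a library to 1 animal, so each p-value is set against the spread among these libraries, which may be technical. The animals' ages are not stated in the labels.

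Collagens are the main structural proteins of the extracellular matrix, each built from 3 chains wound into a triple helix. Fibrillar collagens such as types I and III make the cables that give vessel walls, airways and alveolar septa their tensile strength. Type IV collagens form the sheet-like network of basement membranes, which in the lung lies between capillary endothelium and alveolar epithelium, and type VI collagens form fine beaded filaments around cells. In pulmonary hypertension, collagen is known to build up in the walls of small pulmonary arteries.

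The values are the authors' normalized gene counts, called signal below. A level is compared between genes only as signal per kilobase (kb) of exon. Exon length is the merged length of all annotated exons of a gene, not that of its main transcript. Differences are log2 fold changes of signal + 1 from 1 linear model over all genes, and a gene was called at an adjusted p under 0.05. For each gene the model used 1 estimate of the spread, shared by all 4 groups. Of the 43 collagens, 39 passed the filter of a signal of at least 10 in at least 4 libraries. Estimated depth ran from 4.96 to 56.7 M reads, lowest in WT hypoxia 4. The Vip gene itself did not follow the genotype labels. It stood between 1.08 and 4.70 in 4 VIPKO hypoxia libraries and at 106 in the library labelled VIPKO hypoxia 4, between 1.16 and 5.54 in VIPKO normoxia, between 0 and 6.77 in WT hypoxia, and between 0 and 12.7 in 5 WT normoxia libraries with 93.0 in the other one. Each genotype direction here therefore rests on the labels. Markers of other tissues were high in single libraries. Skeletal muscle markers summed to 34709 in WT hypoxia 5, against at most 1065 in any other library, and squamous epithelial markers to 6112 there. Thymus markers summed to 15285 in VIPKO hypoxia 3, against at most 381 elsewhere. Cartilage markers, whose tissue makes Col2a1, had low sums over 8 genes, of 205 to 314 in VIPKO hypoxia and 93.1 to 170.0 in VIPKO normoxia, against 165 to 245 in WT hypoxia and 80.7 to 170 in WT normoxia. Of the 3 tested, Hapln1 was called higher in VIPKO hypoxia, both against VIPKO normoxia and against WT hypoxia, and Sox9 and Cytl1 were called higher in WT hypoxia than in WT normoxia. VIPKO hypoxia 2 stood apart from its group. On the first principal component it lay at -65.4, near VIPKO normoxia 2 and 3 at -59.2 and -75.4, while the other 4 VIPKO hypoxia libraries lay between 13.2 and 76.2. Signal of the mitochondrial ribosomal RNAs was 4506 to 9415 in VIPKO hypoxia and 12030 to 27210 in VIPKO normoxia, against 397 to 7058 in WT hypoxia and 97.7 to 2075 in WT normoxia.

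Promoter sequence is shown for 4 collagens of fibrils and microfibrils whose signal was low in the same WT hypoxia libraries, and for Col4a5 and Col4a6, which are read in opposite directions from neighbouring starts. Each run is the 250 bases before the RefSeq start of the gene in GRCm38.p6, read 5′ to 3′ on the gene's own strand. Col1a2 lies at chr6:4505368-4505617 (plus strand), Col3a1 at chr1:45311288-45311537 (plus strand), Col5a1 at chr2:27886175-27886424 (plus strand), Col6a3 at chr1:90843972-90844221 (minus strand), Col4a5 at chrX:141475169-141475418 (plus strand) and Col4a6 at chrX:141474077-141474326 (minus strand).
Col1a2: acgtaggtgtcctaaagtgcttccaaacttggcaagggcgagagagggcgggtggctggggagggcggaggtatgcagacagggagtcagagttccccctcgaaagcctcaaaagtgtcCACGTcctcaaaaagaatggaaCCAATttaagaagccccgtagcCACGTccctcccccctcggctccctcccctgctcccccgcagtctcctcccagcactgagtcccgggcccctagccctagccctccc
Col3a1: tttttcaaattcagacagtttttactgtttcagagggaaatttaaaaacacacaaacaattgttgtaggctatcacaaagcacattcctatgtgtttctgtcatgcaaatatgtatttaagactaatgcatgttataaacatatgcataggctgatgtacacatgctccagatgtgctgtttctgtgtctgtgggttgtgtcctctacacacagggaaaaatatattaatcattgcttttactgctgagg
Col5a1: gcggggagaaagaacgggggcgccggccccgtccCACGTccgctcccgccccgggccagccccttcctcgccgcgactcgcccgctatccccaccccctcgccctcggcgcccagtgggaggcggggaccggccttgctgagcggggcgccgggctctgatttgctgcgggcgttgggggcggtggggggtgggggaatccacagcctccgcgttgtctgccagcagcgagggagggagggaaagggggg
Col6a3: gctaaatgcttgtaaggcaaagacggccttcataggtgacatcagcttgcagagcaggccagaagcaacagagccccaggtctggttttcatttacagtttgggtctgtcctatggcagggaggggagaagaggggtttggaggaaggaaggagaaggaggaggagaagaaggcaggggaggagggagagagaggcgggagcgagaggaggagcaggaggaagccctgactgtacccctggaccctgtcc
Col4a5: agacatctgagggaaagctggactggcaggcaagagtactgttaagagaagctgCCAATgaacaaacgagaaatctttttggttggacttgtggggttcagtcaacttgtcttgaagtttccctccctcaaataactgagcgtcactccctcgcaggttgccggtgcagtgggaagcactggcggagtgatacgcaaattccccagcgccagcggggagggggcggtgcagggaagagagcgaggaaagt
Col4a6: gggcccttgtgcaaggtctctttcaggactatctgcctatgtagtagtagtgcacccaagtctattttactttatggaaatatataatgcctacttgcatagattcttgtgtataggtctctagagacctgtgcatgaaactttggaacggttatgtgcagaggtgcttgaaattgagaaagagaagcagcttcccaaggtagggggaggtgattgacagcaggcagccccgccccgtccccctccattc
Capitals mark each match to the CCAAT box, which reads ATTGG on the other strand. They also mark 2 cores of hypoxia response elements, 1 spelled ACGTG and read as CACGT on the other strand, and 1 spelled GCGTG and read as CACGC on the other strand. Col1a2 held CACGT at 131 and 87 bases before its start and CCAAT at 109. Col5a1 held CACGT at 216, Col4a5 held CCAAT at 196, and the windows of Col3a1, Col6a3 and Col4a6 held none of these letters. RefSeq windows were found for 34 of the 43 collagens, 36 windows in all. The CCAAT box was in 12 of the 36, against 33.85% of all 32851 promoters of the same length. ACGTG or CACGT was in 5, against 16.57%, and GCGTG or CACGC in 8, against 28.16%. The starts of Col4a5 and Col4a6 lay 1343 bases apart.

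Basement membrane chains were the most abundant collagen transcripts of these lungs per kb of exon. Col4a2 and Col4a1, whose products pair in the common type IV network, averaged 2295 and 2228 signal per kb over the 20 libraries. Next came Col1a1, the main chain of type I fibrils, at 1209, and the type VI chain Col6a1 at 1123. The type III chain Col3a1 stood at 941 and the second type I chain Col1a2 at 671. This order and the class shares below depend on the merged exon lengths. They were 12.43 kb for Col1a2 and 9.816 kb for Col3a1, against 6.563 kb for Col1a1 and 4.38 kb for Col6a1. The 8 basement membrane genes held 52.1% ± 3.5 of the summed collagen signal per kb in VIPKO hypoxia and 46.5% ± 2.7 in VIPKO normoxia, against 52.5% ± 6.9 in WT hypoxia and 47.7% ± 2.7 in WT normoxia (SD, n = 5, 4, 5 and 6). The 11 fibrillar genes held 24.8% ± 2.2 in VIPKO hypoxia and 26.9% ± 2.0 in VIPKO normoxia, against 22.1% ± 8.1 in WT hypoxia and 26.1% ± 2.5 in WT normoxia. The ranges of these shares overlapped between hypoxia and normoxia in both genotypes. Collagens together took 0.472% to 0.600% of all signal in VIPKO hypoxia and 0.4995% to 0.560% in VIPKO normoxia, against 0.317% to 0.634% in WT hypoxia and 0.506% to 0.560% in WT normoxia.

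**Figure D1:**
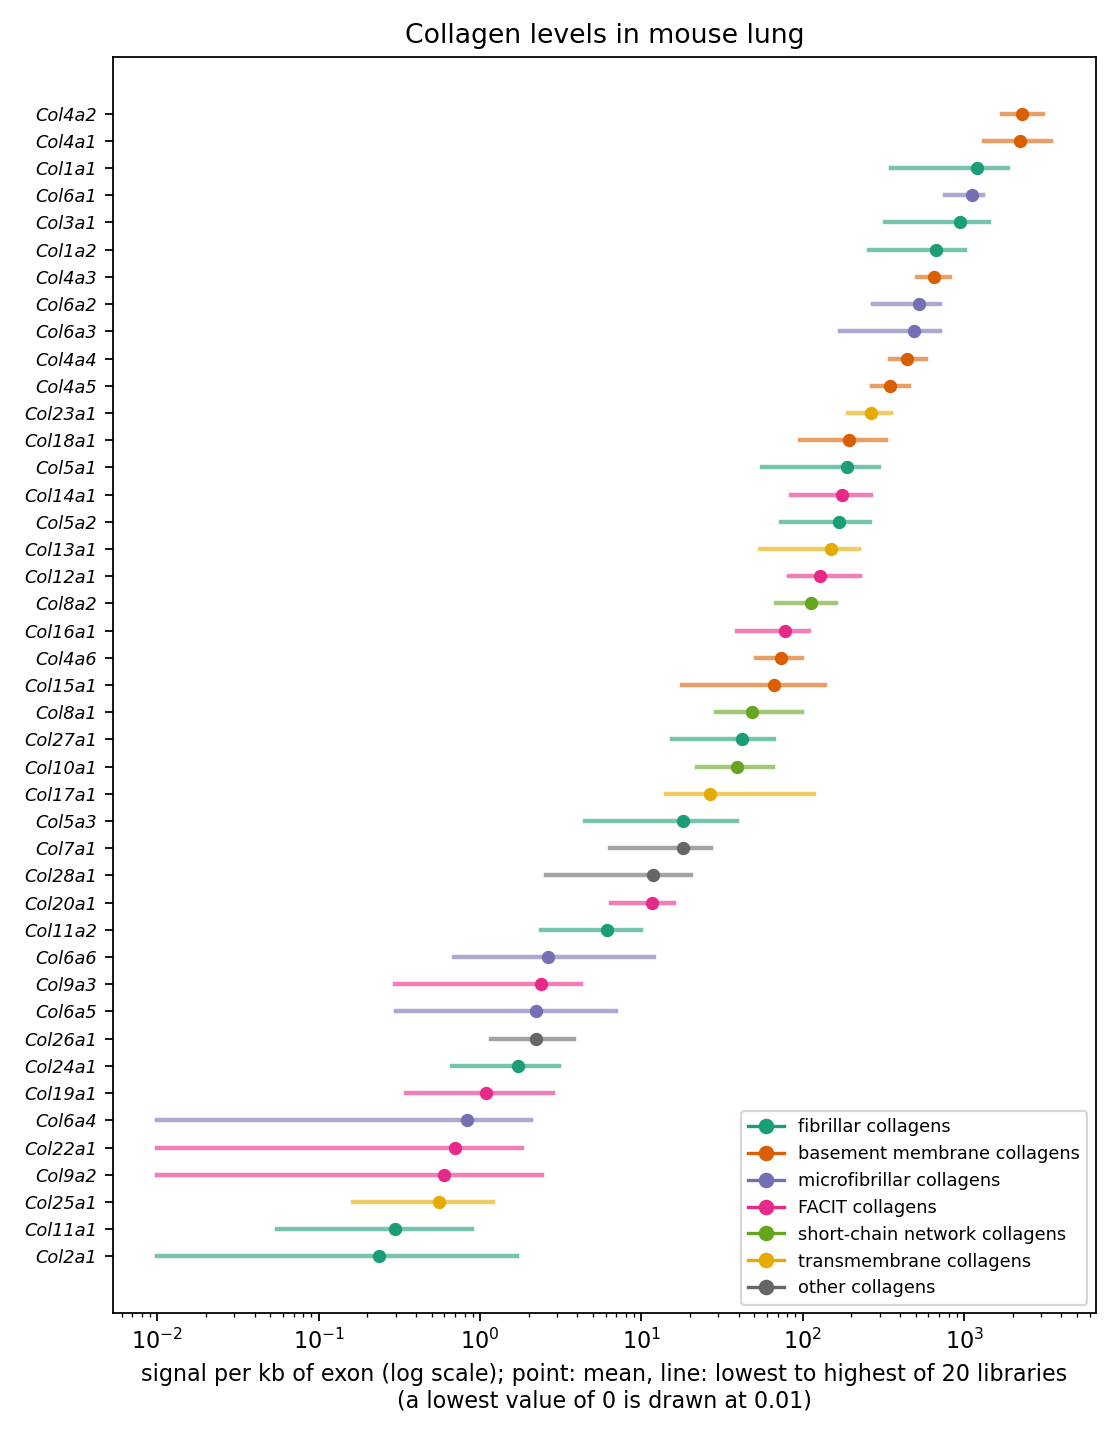
Signal per kb of exon of the 43 collagen genes on a log scale, with the mean over 20 libraries as a point and the lowest to highest library as a line, coloured by class. Col4a2 and Col4a1 lead at 2295 and 2228, and the lines of Col1a1, Col1a2 and Col3a1 reach far to the low side.

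The first comparison asked what hypoxia changed in WT lungs. Of the 39 collagens, 0 rose and 5 fell, namely Col5a1, Col27a1, Col6a3, Col6a4 and Col12a1. Over all genes, 14.7% were called in this comparison, 7.88% higher and 6.77% lower. With both directions together, 5 of 39 was no larger a share than that of genes at large. All 5 lay on the lower side, a larger share of the 39 than the 6.77% of all genes called lower. Whether collagens were called lower more often than genes at large was not tested. Col6a4 could enter this comparison only by being high in WT normoxia, as given with its values, which leaves 4 others. The median log2 fold change of the collagens was -0.30, with 28 below 0 and 11 above, against -0.0059 over all genes. An unadjusted p under 0.05 was reached by 14 collagens. The count of called collagens moved with single libraries, as did the share called over all genes. It was 3 without WT hypoxia 1, 8 without WT normoxia 5 and 15 without WT hypoxia 4. Over all genes, 8.02%, 15.02% and 21.75% were called in the same fits, against 14.7% with all libraries.

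In VIPKO lungs hypoxia moved no collagen past the threshold. limma called 0 of 39, with 5 under an unadjusted 0.05, while 0.997% of all genes were called (0.614% higher and 0.383% lower). Col25a1 is among the 5 and passed the filter through normoxia libraries only. The median log2 fold change was -0.08, with 17 above 0 and 22 below. Between VIPKO and WT lungs in normoxia, no collagen passed the threshold either, where 8.65% of all genes were called (4.69% higher and 3.96% lower). limma called 0 of 39 there. Col14a1 was the 1 gene under an unadjusted 0.05, and the median was -0.03. No collagen separated the 2 normoxia groups without overlap, as 4.75% of all genes did on the higher side and 5.13% on the lower side.

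Between the genotypes in hypoxia, 2 collagens were higher in VIPKO lungs, the fibrillar Col5a2 and the transmembrane Col13a1, and the basement membrane chain Col4a6 was lower. Over all genes 1.62% were called, 0.716% higher and 0.9% lower. The median over the collagens was 0.22, with 27 above 0, against 0.02 over all genes, and 11 had an unadjusted p under 0.05. This comparison and hypoxia in WT share the WT hypoxia libraries. It had 1 called collagen, Col4a6, in 15 of the 20 fits that left out 1 library, and 6 without WT hypoxia 4. Over all genes, 2.715% were called without WT hypoxia 4, and 0.162% to 6.18% across the 20 fits. The genotype by oxygen interaction, which tests whether hypoxia moved a gene differently in VIPKO and WT lungs, gave 0 calls among 39 in limma. An unadjusted p under 0.05 was reached by 8, while 0.282% of all genes were called (0.134% higher and 0.148% lower). In whole-lung RNA, fewer cells of a type and less RNA per cell cannot be told apart.

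**Figure D2:**
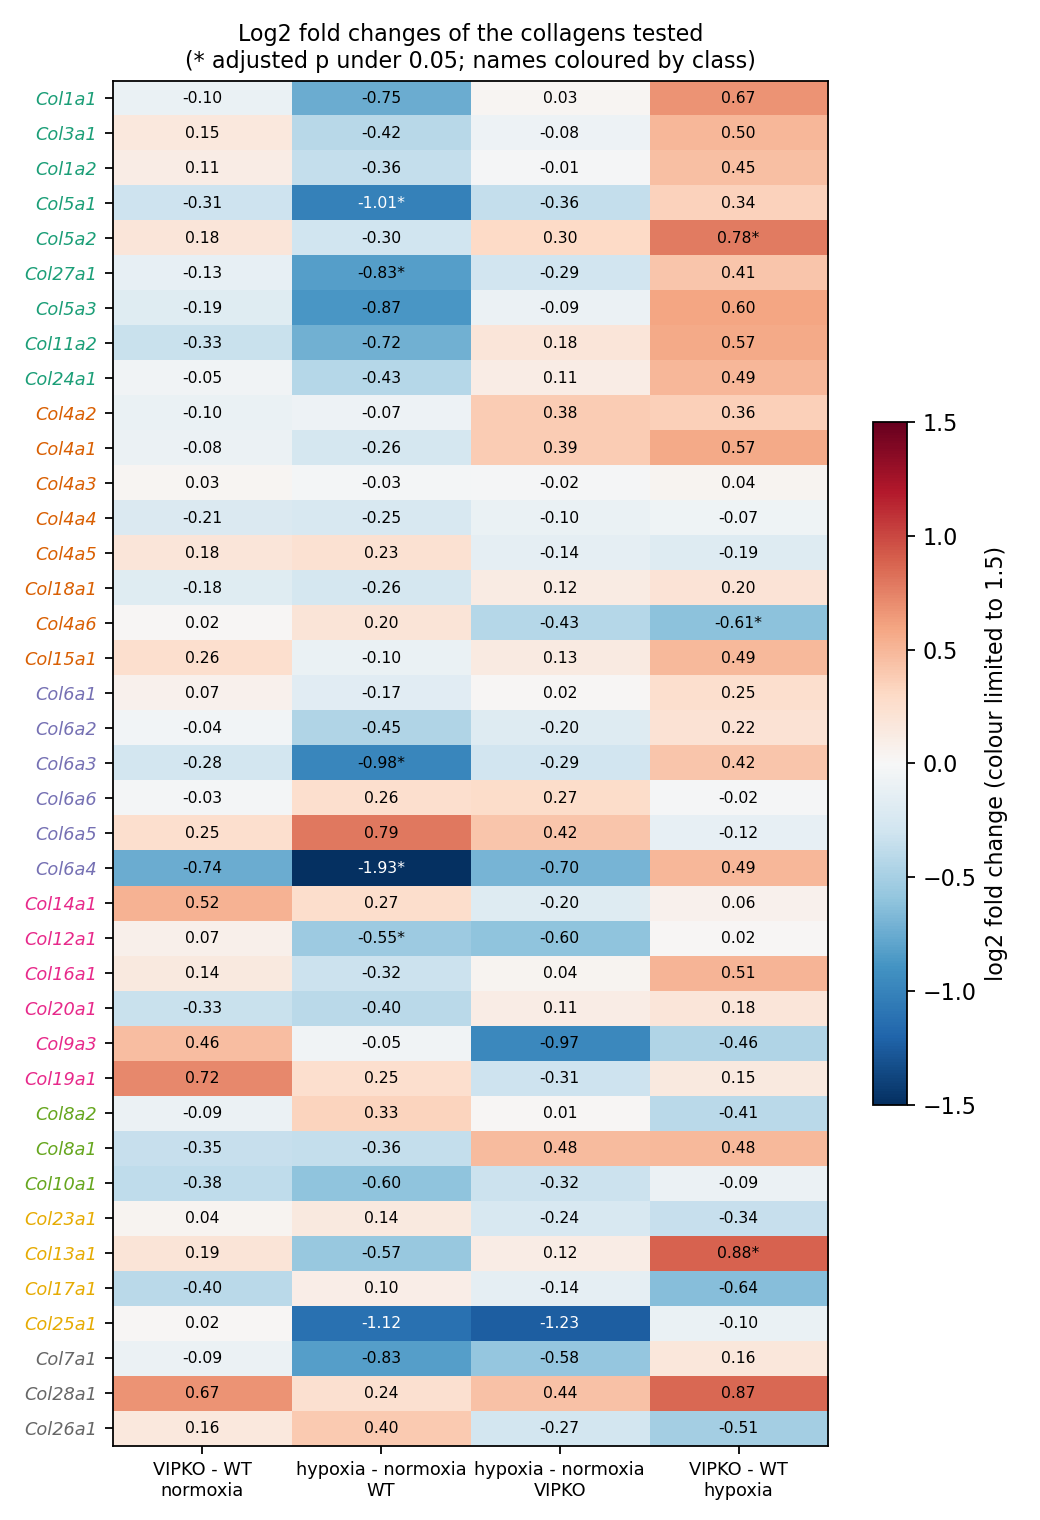
Log2 fold changes of the 39 collagens tested, 1 line per gene in the order of class and level, for VIPKO minus WT in normoxia, hypoxia minus normoxia in WT, hypoxia minus normoxia in VIPKO, and VIPKO minus WT in hypoxia; an asterisk marks an adjusted p under 0.05. The 9 fibrillar genes are all below 0 for hypoxia in WT and all above 0 for VIPKO against WT in hypoxia, 2 columns that share the WT hypoxia libraries.

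Fibrillar collagens had the lowest median of the 7 classes in WT hypoxia. All 9 tested were below 0 there, with a median log2 fold change of -0.72, and 2 of them were called, Col5a1 and Col27a1, where 14.7% of all genes were called and 6.77% were called lower. In VIPKO hypoxia 4 of the 9 were above 0 and 5 below their normoxia level, with a median of -0.01. The interaction median over the 9 was 0.60, with 0 called.

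Col5a1 encodes the type V chain that starts and limits the width of type I fibrils (chromosome 2, 27886425 to 28039514, plus strand, GRCm38). Col5a1 had a signal of 1524, 1470.0, 1093, 1099.7 and 1391 in VIPKO hypoxia libraries 1 to 5, and of 1717, 1628, 2104 and 1311 in VIPKO normoxia libraries 1 to 4. Col5a1 stood at 473, 746, 991, 2056 and 1577 in WT hypoxia libraries 1 to 5, and between 1290.1 and 2528 with a median of 2199 in the 6 WT normoxia libraries. The WT hypoxia values ran below the WT normoxia range in libraries 1 to 3 and lay inside it in libraries 4 and 5. The log2 fold change in WT hypoxia was -1.01 ± 0.27 (SE, adjusted p = 0.0194), and adjusted p was 0.0531 without WT hypoxia 1. In VIPKO hypoxia it was -0.36 ± 0.30 (SE, adjusted p = 0.633). Its exons share bases with 2 genes on the opposite strand, and no source used here gives the strand used in counting, so reads of these genes cannot be told apart. The same holds for Col9a3, Col15a1, Col4a3, Col6a6 and Col22a1, and Col3a1, Col7a1 and Col20a1 share exon bases with genes on their own strand.

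Col27a1 encodes a fibrillar chain known from cartilage and also made in lung (chromosome 4, 63214004 to 63334991, plus strand). Col27a1 had a signal of 495, 655, 339.8, 439 and 571 in VIPKO hypoxia libraries 1 to 5, and of 863, 537, 640.4 and 426 in VIPKO normoxia libraries 1 to 4. Col27a1 stood at 200.3, 360.4, 284, 629.7 and 511 in WT hypoxia libraries 1 to 5, and between 601 and 742 with a median of 641 in the 6 WT normoxia libraries. In WT hypoxia 4 libraries were below every WT normoxia library, and library 4 was not. The fold change in WT hypoxia was -0.83 ± 0.23 (SE, adjusted p = 0.0244). The call was lost without WT hypoxia 1 (adjusted p = 0.0708) or WT hypoxia 3 (adjusted p = 0.0743).

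Col3a1, the type III chain of distensible tissues such as lung and vessel wall, did not pass the test (chromosome 1, 45311538 to 45349706, plus strand). Col3a1 had a signal of 8433, 11425, 8585, 9189.8 and 10735 in VIPKO hypoxia libraries 1 to 5, and of 9409, 10703, 10546 and 9933 in VIPKO normoxia libraries 1 to 4. Col3a1 stood at 3289, 3189, 8265, 14006 and 12080.2 in WT hypoxia libraries 1 to 5, and between 7821 and 10868 with a median of 9043 in the 6 WT normoxia libraries. Libraries 1 and 2 of WT hypoxia were the lowest of all 20 and libraries 4 and 5 were the highest. The fold change was -0.42 ± 0.29 (SE, adjusted p = 0.313) for hypoxia in WT and -0.08 ± 0.32 (SE, adjusted p = 0.944) for hypoxia in VIPKO. Between genotypes in hypoxia it was 0.50 ± 0.30 (SE, adjusted p = 0.384).

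Col1a2, which supplies 1 of the 3 chains of type I collagen, was likewise low in WT hypoxia 1 and 2 and did not pass the test (chromosome 6, 4504814 to 4541544, plus strand). Col1a2 had a signal of 7899, 8933, 7114, 9239 and 11402 in VIPKO hypoxia libraries 1 to 5, and of 9767, 8622, 8821 and 8391 in VIPKO normoxia libraries 1 to 4. Col1a2 stood at 3204, 3968, 7274, 12536 and 9562 in WT hypoxia libraries 1 to 5, and between 6205 and 9384 with a median of 8582 in the 6 WT normoxia libraries. The lowest of all libraries were again WT hypoxia 1 and 2, and the highest was WT hypoxia 4. The fold change in WT hypoxia was -0.36 ± 0.25 (SE, adjusted p = 0.321). Col1a1, which supplies the other chains of type I collagen, was added outside the rule for named genes because of this partnership. Col1a1 had a signal of 7612, 8078, 7011, 8102 and 10798 in VIPKO hypoxia libraries 1 to 5, and of 9221, 7849, 8200.1 and 7124 in VIPKO normoxia libraries 1 to 4. Col1a1 stood at 2308, 2435, 5732, 12346 and 9189 in WT hypoxia libraries 1 to 5, and between 6157 and 10436 with a median of 8964 in the 6 WT normoxia libraries. WT hypoxia 1 and 2 were the lowest 2 libraries for Col1a1 as well. Its fold change was -0.75 ± 0.32 (SE, adjusted p = 0.108) in WT hypoxia and 0.03 ± 0.35 (SE, adjusted p = 0.982) in VIPKO hypoxia.

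Col5a2, the partner of Col5a1 in type V collagen, was the only fibrillar chain called between the genotypes in hypoxia (chromosome 1, 45374321 to 45503282, minus strand). Col5a2 had a signal of 1938, 2491, 1787, 1938 and 2087 in VIPKO hypoxia libraries 1 to 5, and of 1634, 1727, 1717 and 1554 in VIPKO normoxia libraries 1 to 4. Col5a2 stood at 704, 856, 1259, 2037 and 1533 in WT hypoxia libraries 1 to 5, and between 1327 and 1618 with a median of 1471 in the 6 WT normoxia libraries. Every VIPKO hypoxia library was above every VIPKO normoxia library. In WT hypoxia, library 4 reached the VIPKO hypoxia range and the other 4 did not. The genotype difference in hypoxia was 0.78 ± 0.19 (SE, adjusted p = 0.0439), a call that held in 5 of the 20 fits that left out 1 library, with adjusted p up to 0.117. Hypoxia in VIPKO was 0.30 ± 0.20 (SE, adjusted p = 0.545), and the interaction was 0.60 ± 0.27 (SE, adjusted p = 0.325).

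The other fibrillar chains tested were low. Col5a3 averaged 118 ± 38.3 in VIPKO hypoxia and 139 ± 89.4 in VIPKO normoxia, against 95.2 ± 68.5 in WT hypoxia and 142 ± 38.5 in WT normoxia (SD, n = 5, 4, 5 and 6). Col11a2 lay between 16.3 and 67.8 and Col24a1 between 5.08 and 23.3 over the 20 libraries. None of these 3 was called in any comparison. Col11a1 and Col2a1 did not pass the filter, with at most 11.4 and 15.5 in any library.

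**Figure D3:**
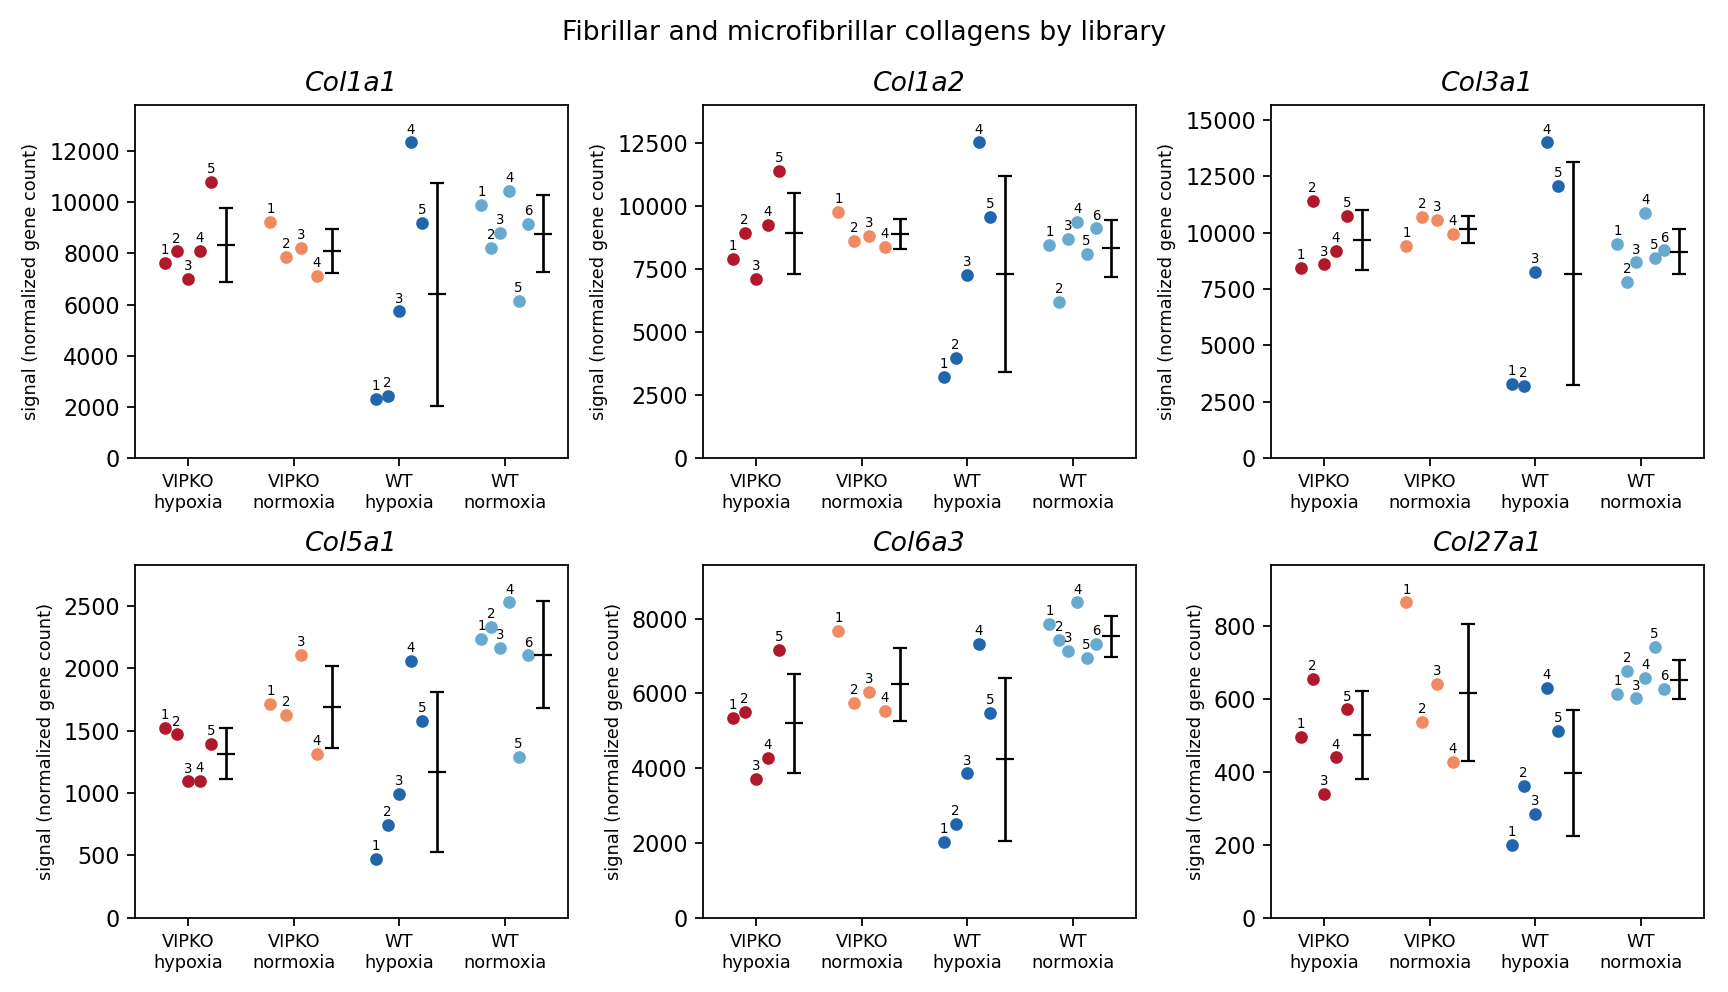
Signal by library of 5 fibrillar genes and the type VI chain Col6a3 in the 4 groups, with library numbers above the points and the mean ± SD to the right of each group. WT hypoxia 1 and 2 lie below all WT normoxia libraries in every panel, and for Col3a1 they stand at 3289 and 3189 beside 14006 in WT hypoxia 4.

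Of the 6 microfibrillar type VI chains, Col6a3 fell in WT hypoxia, where 6.77% of all genes were called lower. Col6a4 was called lower too, but its place in the test depended on its normoxia level. Col6a3, the long chain that completes the common type VI molecule (chromosome 1, 90765923 to 90843971, minus strand), had the smallest p of the family in this comparison. Col6a3 had a signal of 5337, 5508, 3711, 4285 and 7161 in VIPKO hypoxia libraries 1 to 5, and of 7669, 5743, 6036 and 5535 in VIPKO normoxia libraries 1 to 4. Col6a3 stood at 2028, 2509, 3861, 7327 and 5467 in WT hypoxia libraries 1 to 5, and between 6954 and 8432 with a median of 7372 in the 6 WT normoxia libraries. WT hypoxia libraries 1, 2, 3 and 5 lay below every WT normoxia library, and library 4 lay within their range. The fold change was -0.98 ± 0.24 (SE, adjusted p = 0.0134) in WT hypoxia. It was -0.29 ± 0.26 (SE, adjusted p = 0.671) in VIPKO hypoxia, and the interaction was 0.70 ± 0.36 (SE, adjusted p = 0.383).

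Col6a4, a chain related to Col6a3, was near the floor (chromosome 9, 105989454 to 106096783, minus strand). Col6a4 had a signal of 3.25, 3.83, 10.8, 2.10 and 2.40 in VIPKO hypoxia libraries 1 to 5, and of 11.5, 7.76, 6.40 and 3.49 in VIPKO normoxia libraries 1 to 4. Col6a4 stood at 3.17, 3.38, 2.77, 0 and 5.71 in WT hypoxia libraries 1 to 5, and between 7.87 and 17.6 with a median of 11.4 in the 6 WT normoxia libraries. All 5 WT hypoxia libraries were below all 6 WT normoxia libraries, a separation seen on the lower side in 3.81% of all genes. On the higher side no collagen separated in this way, against 4.13% of all genes. WT hypoxia 4, listed at 0, was the shallowest library, where 3 reads amount to a signal of 11.7. Col6a4 reached a signal of 10 in 4 WT normoxia libraries, 1 VIPKO normoxia library and 1 VIPKO hypoxia library and in 0 WT hypoxia libraries. It thus passed the filter through the group where it was high, which favours a lower call in WT hypoxia, and the call supports nothing further. The fold change was -1.93 ± 0.47 (SE, adjusted p = 0.0144), and its exons share bases with 2 genes on the opposite strand.

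Col6a1 and Col6a2, the short chains of type VI collagen, were not called. Col6a1 had a signal of 5162, 4976, 4916, 5287 and 5739 in VIPKO hypoxia libraries 1 to 5, and of 5266, 5333, 4994 and 4990.1 in VIPKO normoxia libraries 1 to 4. Col6a1 stood at 3336, 3937, 4567, 4847 and 5487 in WT hypoxia libraries 1 to 5, and between 4405 and 5646 with a median of 4833 in the 6 WT normoxia libraries. The log2 fold change of Col6a1 was -0.17 ± 0.10 (SE, adjusted p = 0.259) in WT hypoxia, and WT hypoxia 1 and 2 were its lowest libraries. Col6a2 had a signal of 4194, 4214, 3652, 3651 and 4877 in VIPKO hypoxia libraries 1 to 5, and of 4723, 4720.1, 4629 and 4724 in VIPKO normoxia libraries 1 to 4. Col6a2 stood at 2257, 2864, 3573, 4762 and 4922 in WT hypoxia libraries 1 to 5, and between 4096 and 5938 with a median of 4655 in the 6 WT normoxia libraries. The log2 fold change of Col6a2 was -0.45 ± 0.15 (SE, adjusted p = 0.0518) in WT hypoxia, where libraries 1 to 3 were below the lowest WT normoxia library. In normoxia the VIPKO and WT values of Col6a2 overlapped.

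Col6a5 and Col6a6, both low, were highest in libraries that also held tissue markers from outside the lung. Col6a5 stood at 65.8 in VIPKO hypoxia 3 and 65.5 in WT hypoxia 5, and at 33.2 or less in the other 18 libraries. Col6a6 stood at 110 in WT hypoxia 5 and at 43.2 or less elsewhere. WT hypoxia 5 is the library with skeletal muscle and squamous markers and VIPKO hypoxia 3 the one with thymus markers, and their part in these values was not tested. Neither gene was called.

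Basement membrane collagens held the most abundant chains and 1 called difference between the genotypes. Of the 8 tested, 0 were called for hypoxia in WT, where their median log2 fold change was -0.09, and 0 for hypoxia in VIPKO, where it was 0.05. Col4a6 was the only one called between the genotypes in hypoxia.

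Col4a1 (chromosome 8, 11198423 to 11312826, minus strand) and Col4a2 (chromosome 8, 11312805 to 11449287, plus strand) lie head to head and share a few exon bases on opposite strands. Col4a1 had a signal of 19125, 25885, 20485, 17888 and 18474 in VIPKO hypoxia libraries 1 to 5, and of 15314, 16629, 14233 and 15743 in VIPKO normoxia libraries 1 to 4. Col4a1 stood at 10524, 9861, 14373, 20687 and 15179.5 in WT hypoxia libraries 1 to 5, and between 15549.5 and 17257 with a median of 16426 in the 6 WT normoxia libraries. The 5 VIPKO hypoxia libraries lay above the 4 VIPKO normoxia libraries without overlap. The fold change was 0.39 ± 0.16 (SE, adjusted p = 0.299) for hypoxia in VIPKO and -0.26 ± 0.14 (SE, adjusted p = 0.199) for hypoxia in WT. VIPKO against WT in hypoxia was 0.57 ± 0.15 (SE, adjusted p = 0.0552), and the interaction was 0.65 ± 0.21 (SE, adjusted p = 0.17).

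Col4a2 had a signal of 17269.5, 20374, 18213, 16462 and 17181 in VIPKO hypoxia libraries 1 to 5, and of 14775, 13896, 11603 and 14792 in VIPKO normoxia libraries 1 to 4. Col4a2 stood at 12161, 12165, 13721, 17695 and 14664 in WT hypoxia libraries 1 to 5, and between 11380.5 and 17132 with a median of 15078 in the 6 WT normoxia libraries. As for Col4a1, each VIPKO hypoxia library was above each VIPKO normoxia library. A separation of that kind on the higher side was found in 2.7% of all genes, and Col4a1, Col4a2 and Col5a2 were the 3 collagens that showed it. For Col4a2 hypoxia in VIPKO was 0.38 ± 0.12 (SE, adjusted p = 0.177) and hypoxia in WT was -0.07 ± 0.11 (SE, adjusted p = 0.675). In hypoxia, VIPKO minus WT was 0.36 ± 0.12 (SE, adjusted p = 0.112), and the interaction was 0.46 ± 0.17 (SE, adjusted p = 0.22). Neither gene passed the threshold in any comparison.

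Col4a6 is a minor type IV chain found in the basement membranes of some epithelia and of smooth muscle (chromosome X, 141165403 to 141474076, minus strand). Col4a6 had a signal of 433, 502, 425.1, 409 and 463 in VIPKO hypoxia libraries 1 to 5, and of 626, 489, 622 and 679.9 in VIPKO normoxia libraries 1 to 4. Col4a6 stood at 792, 539.7, 671, 769.7 and 658 in WT hypoxia libraries 1 to 5, and between 541 and 631 with a median of 594 in the 6 WT normoxia libraries. All 5 VIPKO hypoxia libraries were below all 5 WT hypoxia libraries, a separation on the lower side shared by 1.95% of all genes. The genotype difference in hypoxia was -0.61 ± 0.11 (SE, adjusted p = 0.0114), a call kept in all 20 fits that left out 1 library and lost (adjusted p = 0.105) when the 2 compared groups were fitted alone. Hypoxia in VIPKO was -0.43 ± 0.11 (SE, adjusted p = 0.0736), hypoxia in WT was 0.20 ± 0.10 (SE, adjusted p = 0.178), and the interaction was -0.63 ± 0.15 (SE, adjusted p = 0.0748).

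Col4a5 is read from the neighbouring start in the other direction and serves both the Col4a6 network and the network of Col4a3 and Col4a4 (chromosome X, 141475385 to 141689234, plus strand). Col4a5 had a signal of 1867, 2596, 2235, 2075 and 2405 in VIPKO hypoxia libraries 1 to 5, and of 2185, 2376, 2256 and 3059.6 in VIPKO normoxia libraries 1 to 4. Col4a5 stood at 2706, 2145, 2998, 2523 and 2401 in WT hypoxia libraries 1 to 5, and between 1799.8 and 2496 with a median of 2175 in the 6 WT normoxia libraries. The groups overlapped in every comparison. VIPKO against WT in hypoxia was -0.19 ± 0.12 (SE, adjusted p = 0.39), and the interaction was -0.37 ± 0.17 (SE, adjusted p = 0.32).

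Col4a4, a chain of the mature alveolar and glomerular network (chromosome 1, 82448423 to 82586849, minus strand), also overlapped between groups. Col4a4 had a signal of 3838, 4718, 4572, 3719.5 and 4569 in VIPKO hypoxia libraries 1 to 5, and of 4557, 4574, 4118 and 5072 in VIPKO normoxia libraries 1 to 4. Col4a4 stood at 5745, 4509, 4758, 3658 and 3916 in WT hypoxia libraries 1 to 5, and between 4485 and 6153 with a median of 5259 in the 6 WT normoxia libraries. Hypoxia in WT was -0.25 ± 0.11 (SE, adjusted p = 0.127), and VIPKO against WT in normoxia was -0.21 ± 0.12 (SE, adjusted p = 0.272). Its partner Col4a3 averaged 6521 ± 561 in VIPKO hypoxia and 6659 ± 1131 in VIPKO normoxia, against 6379 ± 1001 in WT hypoxia and 6504 ± 738 in WT normoxia (SD, n = 5, 4, 5 and 6), with no call. Col18a1, the source of the fragment endostatin, ran from 677 to 2293 and Col15a1 from 113 to 871. WT hypoxia 1 and 2 were the lowest 2 libraries and WT hypoxia 4 the highest for both of these genes.

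**Figure D4:**
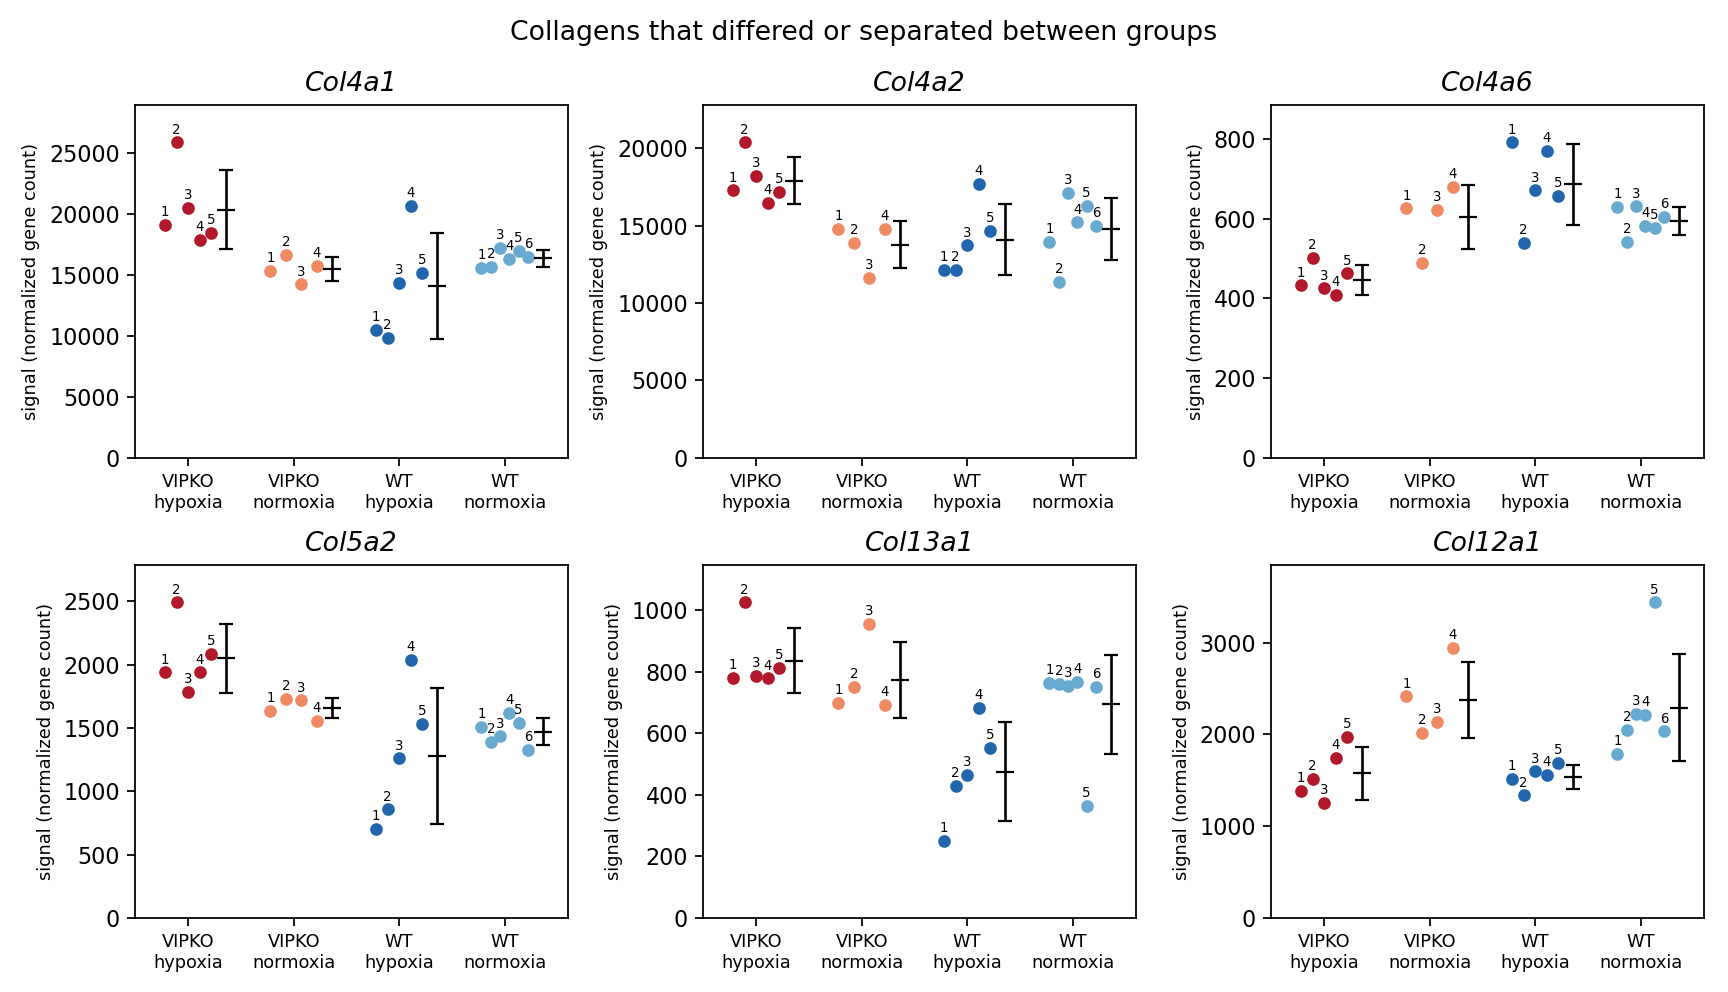
Signal by library of 6 collagens that were called or whose groups separated, with library numbers above the points and the mean ± SD to the right of each group. Col4a6 is at 409 to 502 in VIPKO hypoxia, against 540 to 792 in WT hypoxia, and the Col12a1 points of hypoxia lie below those of normoxia in both genotypes.

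Among FACIT collagens, which sit on the surface of fibrils, Col12a1 separated the hypoxia from the normoxia libraries in both genotypes (chromosome 9, 79598991 to 79718831, minus strand). Col12a1 had a signal of 1386, 1517, 1250.4, 1747 and 1973 in VIPKO hypoxia libraries 1 to 5, and of 2415, 2016, 2141 and 2944 in VIPKO normoxia libraries 1 to 4. Col12a1 stood at 1516, 1335, 1597, 1563 and 1685 in WT hypoxia libraries 1 to 5, and between 1786 and 3440.4 with a median of 2132 in the 6 WT normoxia libraries. In each genotype, all hypoxia libraries lay below all normoxia libraries. On the lower side this separation held for 3.81% of all genes in WT and 2.44% in VIPKO. The fold change of Col12a1 in hypoxia was -0.60 ± 0.16 (SE, adjusted p = 0.0833) in VIPKO, which missed the threshold, and -0.55 ± 0.14 (SE, adjusted p = 0.0186) in WT, which passed. The interaction was -0.05 ± 0.21 (SE, adjusted p = 0.937). Its WT hypoxia libraries 1 and 2 stood beside the other 3, unlike those of the fibrillar genes.

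Col14a1, a FACIT that regulates early fibril assembly (chromosome 15, 55307750 to 55520803, plus strand), was the collagen with the smallest p for VIPKO against WT in normoxia. Col14a1 had a signal of 1137, 1202, 1052, 1522 and 1324 in VIPKO hypoxia libraries 1 to 5, and of 1509, 1241, 1868 and 1153 in VIPKO normoxia libraries 1 to 4. Col14a1 stood at 595, 944, 1246, 1819 and 1832 in WT hypoxia libraries 1 to 5, and between 844 and 1257 with a median of 972 in the 6 WT normoxia libraries. The difference was 0.52 ± 0.23 (SE, adjusted p = 0.165). The 4 VIPKO normoxia libraries overlapped the 6 WT normoxia libraries only through WT normoxia 5, at 1257. Hypoxia in WT was 0.27 ± 0.22 (SE, adjusted p = 0.412).

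Col16a1, a FACIT found with fibrillin microfibrils and some basement membranes (chromosome 4, 130047840 to 130099283, plus strand), was low in WT hypoxia 1. Col16a1 had a signal of 536, 735, 550.2, 551 and 579 in VIPKO hypoxia libraries 1 to 5, and of 560.3, 609.6, 535 and 572 in VIPKO normoxia libraries 1 to 4. Col16a1 stood at 264, 365, 466, 610.3 and 434 in WT hypoxia libraries 1 to 5, and between 419 and 644 with a median of 502 in the 6 WT normoxia libraries. VIPKO against WT in hypoxia was 0.51 ± 0.17 (SE, adjusted p = 0.121), with WT hypoxia 4 inside the VIPKO range. Col20a1 lay between 33.2 and 81.6, Col9a3 between 1.14 and 16.3 and Col19a1 between 2.40 and 19.4, with no call. Col22a1 and Col9a2 did not pass the filter, with at most 16.8 and 7.47 in any library.

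Short-chain collagens, which form hexagonal lattices such as those under endothelium, were not called in any comparison. Col8a1 had a signal of 399.8, 397, 266, 769 and 466 in VIPKO hypoxia libraries 1 to 5, and of 332, 266, 354 and 298 in VIPKO normoxia libraries 1 to 4. Col8a1 stood at 227, 318, 259, 494 and 306 in WT hypoxia libraries 1 to 5, and between 329 and 455 with a median of 398 in the 6 WT normoxia libraries. Col8a1 is made by smooth muscle and endothelial cells of injured vessels (chromosome 16, 57624258 to 57754737, minus strand). Its interaction was 0.83 ± 0.31 (SE, adjusted p = 0.225), with hypoxia in VIPKO at 0.48 ± 0.23 (SE) and hypoxia in WT at -0.36 ± 0.21 (SE). The highest value was VIPKO hypoxia 4, and the groups overlapped.

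Col8a2 had a signal of 441, 347, 689, 433 and 405 in VIPKO hypoxia libraries 1 to 5, and of 457, 464, 365 and 512 in VIPKO normoxia libraries 1 to 4. Col8a2 stood at 717, 453, 725, 544 and 591 in WT hypoxia libraries 1 to 5, and between 306 and 615 with a median of 533 in the 6 WT normoxia libraries. Col8a2, its partner chain (chromosome 4, 126286793 to 126314330, plus strand), had a VIPKO minus WT difference in hypoxia of -0.41 ± 0.19 (SE, adjusted p = 0.258), with VIPKO hypoxia 3 inside the WT range. Col10a1 had a signal of 123, 131, 72.3, 69.2 and 97.1 in VIPKO hypoxia libraries 1 to 5, and of 168, 140.5, 109.9 and 76.8 in VIPKO normoxia libraries 1 to 4. Col10a1 stood at 94.2, 132, 74.7, 139.9 and 83.4 in WT hypoxia libraries 1 to 5, and between 135 and 205 with a median of 144 in the 6 WT normoxia libraries. Col10a1, the collagen of hypertrophic cartilage (chromosome 10, 34389981 to 34397085, plus strand), had a fold change of -0.60 ± 0.22 (SE, adjusted p = 0.07) in WT hypoxia, where 4 of the 5 libraries were below the lowest WT normoxia library. It shares exon bases with Nt5dc1 on the opposite strand.

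Transmembrane collagens span the cell membrane and shed their outer part. Col13a1, found at cell contacts and at the neuromuscular junction (chromosome 10, 61838236 to 61979108, minus strand), was called between the genotypes in hypoxia. Col13a1 had a signal of 782, 1026, 786, 779 and 813 in VIPKO hypoxia libraries 1 to 5, and of 699, 753, 956 and 693 in VIPKO normoxia libraries 1 to 4. Col13a1 stood at 250.1, 428, 465, 684 and 552 in WT hypoxia libraries 1 to 5, and between 365 and 769 with a median of 758 in the 6 WT normoxia libraries. All 5 VIPKO hypoxia libraries were above all 5 WT hypoxia libraries, a separation on the higher side shared by 1.81% of all genes. The difference was 0.88 ± 0.22 (SE, adjusted p = 0.0477). The call was kept in 5 of the 20 fits that left out 1 library, with adjusted p up to 0.122. Hypoxia in WT was -0.57 ± 0.21 (SE, adjusted p = 0.0694), where WT normoxia 5 stood at 365 and the other 5 WT normoxia libraries between 751 and 769.

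Col23a1, a transmembrane collagen that binds integrins, was abundant for its class (chromosome 11, 51289920 to 51583918, plus strand). Col23a1 had a signal of 1159, 1099, 1466, 1259 and 1592 in VIPKO hypoxia libraries 1 to 5, and of 1673, 1623, 1152 and 1798 in VIPKO normoxia libraries 1 to 4. Col23a1 stood at 2026, 1753, 1731, 1345 and 1478 in WT hypoxia libraries 1 to 5, and between 1325 and 1619 with a median of 1534 in the 6 WT normoxia libraries. VIPKO against WT in hypoxia was -0.34 ± 0.13 (SE, adjusted p = 0.159), with overlap. Col25a1 had a signal of 3.61, 5.57, 2.16, 2.10 and 5.99 in VIPKO hypoxia libraries 1 to 5, and of 15.1, 13.3, 9.61 and 4.66 in VIPKO normoxia libraries 1 to 4. Col25a1 stood at 2.37, 3.38, 4.15, 3.89 and 6.85 in WT hypoxia libraries 1 to 5, and between 6.60 and 15.6 with a median of 9.24 in the 6 WT normoxia libraries. Col25a1, known from neurons and developing muscle (chromosome 3, 130131501 to 130599877, plus strand), was near the floor and reached a signal of 10 in 5 libraries, all of them normoxia libraries. It did not pass the test for hypoxia, at -1.23 ± 0.42 (SE, adjusted p = 0.204) in VIPKO and -1.12 ± 0.38 (SE, adjusted p = 0.0529) in WT. Col17a1, of epithelial hemidesmosomes, stood at 709 in WT hypoxia 5, the library with squamous markers, and at 205 or less in the other 19.

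The remaining class held Col7a1, Col28a1 and Col26a1, with no call. Col7a1 had a signal of 147, 240.4, 102, 105 and 155 in VIPKO hypoxia libraries 1 to 5, and of 279, 197, 245 and 151 in VIPKO normoxia libraries 1 to 4. Col7a1 stood at 65.7, 117, 80.2, 253 and 211 in WT hypoxia libraries 1 to 5, and between 150.0 and 277 with a median of 248 in the 6 WT normoxia libraries. Col7a1 encodes the anchoring fibrils of epithelia (chromosome 9, 108953586 to 108984875, plus strand) and had a fold change of -0.83 ± 0.31 (SE, adjusted p = 0.0698) in WT hypoxia. WT hypoxia 1, 2 and 3 were below the lowest WT normoxia library. Col28a1 had a signal of 95.7, 78.9, 53.9, 79.7 and 99.5 in VIPKO hypoxia libraries 1 to 5, and of 93.1, 42.1, 80.1 and 37.3 in VIPKO normoxia libraries 1 to 4. Col28a1 stood at 26.1, 54.1, 29.1, 62.2 and 59.4 in WT hypoxia libraries 1 to 5, and between 12.6 and 84.0 with a median of 39.1 in the 6 WT normoxia libraries. Col28a1, a collagen of nerve sheaths (chromosome 6, 7997808 to 8192617, minus strand), had a VIPKO minus WT difference in hypoxia of 0.87 ± 0.41 (SE, adjusted p = 0.253), with overlap. Col26a1 lay between 9.61 and 31.1.

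The spread between WT hypoxia libraries was wide for collagens. The median SD of log2 signal over the 39 collagens was 0.257 in VIPKO hypoxia and 0.242 in VIPKO normoxia, against 0.587 in WT hypoxia and 0.27 in WT normoxia. Over all genes it was 0.295 in VIPKO hypoxia and 0.243 in VIPKO normoxia, against 0.312 in WT hypoxia and 0.264 in WT normoxia. In WT hypoxia it was 0.834 over fibrillar, 0.821 over microfibrillar and 0.243 over basement membrane genes. The linear model shared 1 spread per gene among the groups. Its SEs and p-values for comparisons with WT hypoxia were thus not set against the wider spread of that group alone. The lowest of the 20 libraries was WT hypoxia 1 or 2 for 20 of the 39 collagens (51.3%) and for 9.36% of all genes. For the fibrillar genes it was 8 of 9. WT hypoxia 4, the shallowest library, was the highest of the 20 for 9 of the 39 (23.1%), and for 6.78% of all genes. It was the lowest for 3 of the 39, and for 9.71% of all genes.

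Summed per kb, fibrillar collagens reached 1100.4, 1228, 2588, 4859 and 3813 in WT hypoxia libraries 1 to 5. Smooth muscle markers, 6 genes that include Acta2 and Myh11, summed to 2698, 4568, 5631, 18480.3 and 15401 in the same libraries, against 5517 to 17351 in WT normoxia. Libraries 1 to 3 were low and 4 and 5 high for both. WT hypoxia 5 is also the library with skeletal muscle markers, and their part in its smooth muscle sum was not tested. Fibroblast markers, 10 genes that include Pdgfra and Tcf21, summed to 43964, 60094, 63182, 53057 and 53874, against 41251 to 52478 in WT normoxia. They lay inside that range in WT hypoxia 1 and above it in WT hypoxia 2. Over the 10 genes the median log2 fold change in WT hypoxia was -0.07. Of them 1, Inmt, was called higher, as were 7.88% of all genes. Airway secretory markers were called higher in WT hypoxia for 5 of 6 genes and adipocyte markers for 6 of 6. Among 8 capillary endothelial markers 1 was called higher and 4 lower. Airway secretory markers summed to 157939 to 377932 in WT hypoxia, against 139196 to 195737 in WT normoxia, and adipocyte markers to 682 to 11277, against 73.97 to 437. Capillary markers summed to 15392 to 23487 in WT hypoxia, against 27139 to 31786 in WT normoxia. Between the genotypes in hypoxia, 0 of 6 smooth muscle markers were called, and they summed to 7692 to 15075 in VIPKO hypoxia, against 2698 to 18480 in WT hypoxia. Their median log2 fold change was 0.90 there, -0.58 for hypoxia in WT and 1.01 for the interaction, with 0 called in each. The fibrillar medians were 0.50, -0.72 and 0.60. The part of these cell types, of depth and of single libraries in the collagen differences was not tested.

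Ratios between chains within a library do not depend on how libraries are scaled. The log2 ratio of Col1a1 to Col1a2 averaged -0.32 ± 0.29 in WT hypoxia, against 0.07 ± 0.27 in WT normoxia (SD, n = 5 and 6, difference -0.39, 2-sided exact permutation p = 0.0433, adjusted over 12 ratio tests 0.173). The log2 ratio of Col3a1 to Col1a1 averaged 0.40 ± 0.14 in WT hypoxia, against 0.08 ± 0.23 in WT normoxia (difference 0.33, exact permutation p = 0.0303, adjusted 0.173). For Col4a3 to Col4a1 the mean was -1.63 ± 0.18 in VIPKO hypoxia, against -1.23 ± 0.20 in VIPKO normoxia (SD, n = 5 and 4, difference -0.40, exact permutation p = 0.0317, adjusted 0.173). None of the 12 tests passed after adjustment.

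Genes that modify, cross-link, bind or break down collagen were followed in 6 lists, with 55 genes tested. The lists were drawn up from textbook roles, with earlier results of these data known. Hypoxia in VIPKO lungs moved 2 of the 55 past the threshold, Lox and Plod1, both higher, where 0.997% of all genes were called and 0.614% were called higher. Lox encodes the lysyl oxidase that starts the covalent cross-links between collagen molecules. Lox had a signal of 3370.4, 2744, 2269, 2598 and 2207 in VIPKO hypoxia libraries 1 to 5, and of 934, 1101, 1098 and 1063 in VIPKO normoxia libraries 1 to 4. Lox stood at 883, 1898, 1475, 1427 and 1255 in WT hypoxia libraries 1 to 5, and between 985 and 1703 with a median of 1194 in the 6 WT normoxia libraries. Every VIPKO hypoxia library was above all other libraries. Over all genes, 2.7% separated on the higher side from VIPKO normoxia and 1.81% from WT hypoxia. The share that separated from all other libraries together was not computed. Hypoxia in VIPKO changed Lox by 1.32 ± 0.19 (SE, adjusted p = 0.000758), and the call was kept in all 20 fits that left out 1 library and in the 12 other alternatives. In the same comparison 3 of 8 capillary endothelial markers were called lower (Ednrb, Plvap and Fibin). Capillary markers summed to 14221 to 18180 in VIPKO hypoxia, against 21574 to 25306 in VIPKO normoxia, and their part in the Lox and Plod1 differences was not tested. In hypoxia, VIPKO minus WT was 0.95 ± 0.18 (SE, adjusted p = 0.0153), lost without VIPKO hypoxia 2 (adjusted p = 0.053). The interaction was 1.23 ± 0.25 (SE, adjusted p = 0.0397), a call kept in 4 of the 20 fits that left out 1 library, with adjusted p up to 0.110. It was also lost with no variance trend (adjusted p = 0.0753), with the replicate number as a block (adjusted p = 0.0857) and without VIPKO hypoxia 2 and VIPKO normoxia 2 and 3 (adjusted p = 0.237). Of the 5 crosslinking enzymes, Lox was the only one called in any comparison. No collagen was called for hypoxia in VIPKO.

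Plod1, a lysyl hydroxylase that prepares the residues used in cross-links, was also highest in VIPKO hypoxia. Plod1 had a signal of 1435, 1259, 1082, 1138 and 1146 in VIPKO hypoxia libraries 1 to 5, and of 759, 827, 641 and 772 in VIPKO normoxia libraries 1 to 4. Plod1 stood at 682, 709, 795, 1018 and 988 in WT hypoxia libraries 1 to 5, and between 789.8 and 1045 with a median of 865 in the 6 WT normoxia libraries. Here too every VIPKO hypoxia library was above all the others, with the same shares over all genes as given for Lox. Hypoxia in VIPKO changed it by 0.69 ± 0.12 (SE, adjusted p = 0.00582), VIPKO against WT in hypoxia was 0.54 ± 0.12 (SE, adjusted p = 0.0252), and the interaction was 0.78 ± 0.17 (SE, adjusted p = 0.0463). The interaction call was kept in 5 of 20 fits that left out 1 library, with adjusted p up to 0.115, and was lost with no filter (adjusted p = 0.0559), with no variance trend (adjusted p = 0.0764), with the replicate block (adjusted p = 0.131) and without VIPKO hypoxia 2 and VIPKO normoxia 2 and 3 (adjusted p = 0.271). The genotype difference in hypoxia was kept in 14 of 20, with adjusted p up to 0.068. The hypoxia call in VIPKO was kept in all 20 and lost once VIPKO hypoxia 2 and VIPKO normoxia 2 and 3 were left out together (adjusted p = 0.164). Plod1 was the only 1 of 19 folding and modification enzymes called in these 3 comparisons. In WT hypoxia 1 of the 19 was called, P4hb, the disulfide isomerase that is also a subunit of prolyl hydroxylase, at 0.33 ± 0.11 (SE, adjusted p = 0.041).

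**Figure D5:**
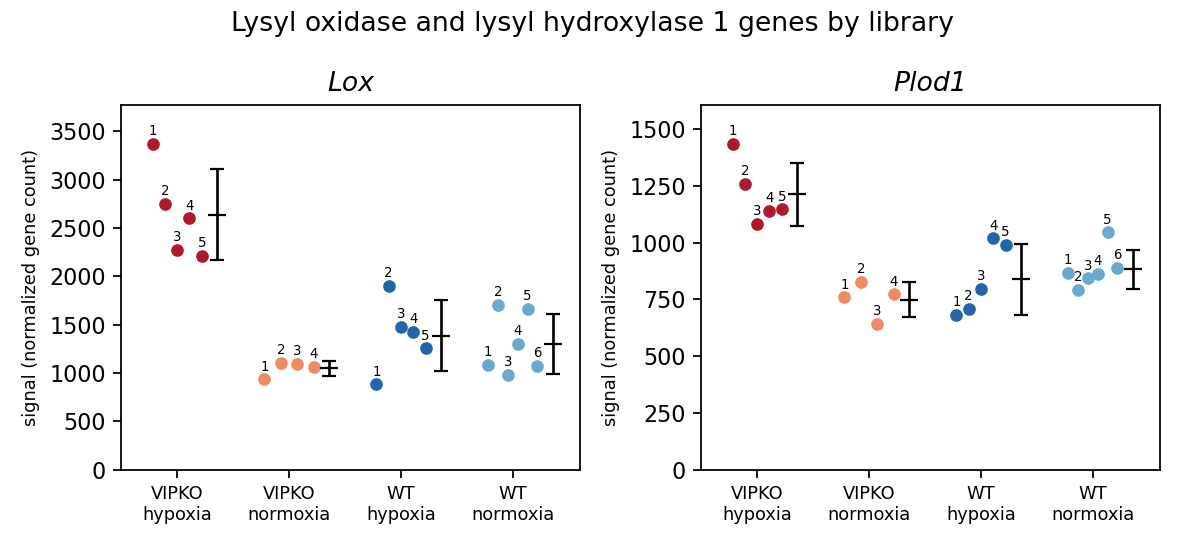
Signal by library of Lox and Plod1 in the 4 groups, with library numbers above the points and the mean ± SD to the right of each group. Every VIPKO hypoxia library lies above the other 15 libraries, from 2207 to 3370.4 for Lox and from 1082 to 1435 for Plod1. The share of all genes that separate in this way was not computed.

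Calls among other collagen partners lay in WT hypoxia and between the genotypes in normoxia. Over the 6 lists 9 of 55 genes were called in WT hypoxia, 5 higher and 4 lower, and 2 of 55 between the genotypes in normoxia, both higher. The share over all genes was 14.7% in WT hypoxia, 7.88% higher and 6.77% lower, and 8.65% between the genotypes in normoxia. Of 7 procollagen processing genes tested, 2 fell in WT hypoxia, the amino-propeptidases Adamts3 (-0.74 ± 0.20 SE, adjusted p = 0.0218) and Adamts14 (-0.82 ± 0.25 SE, adjusted p = 0.035). Of 12 collagen-binding receptors, the integrin chains Itga1 (-0.55 ± 0.16 SE, adjusted p = 0.0263) and Itga10 (-1.12 ± 0.30 SE, adjusted p = 0.0219) fell, and the discoidin receptor Ddr1 rose (0.43 ± 0.13 SE, adjusted p = 0.0305). Each of these 5 calls was lost without WT hypoxia 1 and without WT hypoxia 3. Of 6 collagen-degrading proteases, Ctsk, which encodes cathepsin K, rose in WT hypoxia (1.65 ± 0.41 SE, adjusted p = 0.0149) and was higher in VIPKO than in WT in normoxia (1.62 ± 0.44 SE, adjusted p = 0.0262). Without VIPKO normoxia 2 the second call was lost (adjusted p = 0.124). Of 6 small proteoglycans that coat fibrils, the decorin gene Dcn rose in WT hypoxia (1.07 ± 0.19 SE, adjusted p = 0.00334) and was higher in VIPKO in normoxia (0.84 ± 0.21 SE, adjusted p = 0.0191), a call lost without VIPKO normoxia 2, 3 or 4. The fibromodulin gene Fmod rose in WT hypoxia (0.71 ± 0.18 SE, adjusted p = 0.0171), lost without WT hypoxia 3 (adjusted p = 0.0509). In the normoxia comparison that holds the Ctsk and Dcn calls, 6 of 6 airway secretory and 2 of 6 adipocyte markers were called higher and the capillary marker Plvap lower. Airway secretory markers summed to 231920 to 417050 in VIPKO normoxia, against 139196 to 195737 in WT normoxia, and adipocyte markers to 405 to 1890.3, against 73.97 to 437. Their part in these calls was not tested. These 4 lists had no call for hypoxia in VIPKO, between the genotypes in hypoxia or in the interaction. Where one of the 6 lists had no call in a comparison, its 2 genes of smallest p had adjusted p-values between 0.0505 and 0.595 in limma.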

How the data were processed

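Per the labels' protocols, whole-lung RNA (20 libraries) came from RNeasy Mini Plus columns and was turned into strand-marked libraries by NEBNext Ultra II Directional chemistry. The deposited signal values are the authors' normalized gene counts, per the labels, and mm10 and Partek are named per the submitters' processing notes. No source used here gives the aligner, counter, counting strand or normalization. Depth was estimated from the spacing of low values (4.96 to 56.7 M reads, median 17.8). Whole reads were not recovered: 82.1% to 89.1% of low values were whole multiples, within 0.05 reads, in 19 libraries, and 41.5% in VIPKO hypoxia 2. A count test was therefore not used. Of 30746 lines, 55 had no gene name and were left out, and 133 repeated one.

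The linear model was limma 3.58.1 in R 4.3.3 on log2 of signal + 1, with a variance trend, over 21658 genes with a signal of at least 10 in at least 4 of all 20 libraries. It had 4 pairwise contrasts and the interaction, with Benjamini-Hochberg adjustment over all genes. Chain ratios had 2-sided exact permutation tests over libraries, adjusted over 12. Positions and exon lengths are from GENCODE on GRCm38, and promoter sequences from RefSeq. Every library was given for the 2 most abundant genes of each class and up to 6 genes of smallest p per contrast. Of the pathway lists, called genes were named. Members and lists were chosen with earlier results of these data known. The labels put all samples in 1 batch. Scripts were tested on simulated data.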

Additional observations from a re-analysis of the deposited data

Results flagged for a closer look

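In 100 groups of 4 to 6 libraries, over the 25 collagens given by library, 8 held a library far from the others of its group, and chance flags about 1 in 20. WT normoxia 5 stood apart for 3 genes, with a signal of 3440 for Col12a1 (high), 365 for Col13a1 (low) and 1290.1 for Col5a1 (low). VIPKO hypoxia 2 was high for Col13a1 (1026) and Col16a1 (735). VIPKO hypoxia 3, the library with thymus markers, was high for Col6a4 (10.8) and Col8a2 (689). VIPKO normoxia 3 was low for Col6a2 (4629), in a group whose other libraries lay between 4720.1 and 4724.

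Lox and Plod1 passed the test of whether hypoxia moved a gene differently in VIPKO and WT lungs, but neither call was firm. The limma interaction was 1.23 on the log2 scale for Lox (adjusted p = 0.0397) and 0.78 for Plod1 (adjusted p = 0.0463). The calls held in 4 of 20 fits for Lox and 5 of 20 for Plod1 when 1 library was left out. Both were lost with no variance trend (adjusted p = 0.0753 and 0.0764), with the replicate block (adjusted p = 0.0857 and 0.131) and without VIPKO hypoxia 2 and VIPKO normoxia 2 and 3 (adjusted p = 0.237 and 0.271). Mitochondrial ribosomal RNA signal also differed between these groups, and its part in the interaction was not tested.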

How the results depend on the processing

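Across 32 alternatives for each pairwise comparison and 31 for the interaction, no called result changed direction. Hypoxia in WT had 5 called collagens, where 14.65% of all genes were called. Below, the share of all genes called follows each count in brackets. Hypoxia in WT had 21 with array weights (30.43%), 3 with the replicate block (7.13%) and 8 without WT hypoxia 5 and VIPKO hypoxia 3 (13.87%). VIPKO against WT in hypoxia had 3 (1.62%), against 7 with array weights (8.89%) and 0 with only the compared groups in the fit (0.0416%). It had 1 each with no filter (0.733%), with no variance trend (1.025%) and with the replicate block (0.688%). It also had 1 (0.125%) without VIPKO hypoxia 2 and VIPKO normoxia 2 and 3, which lay together on the first principal component. Hypoxia in VIPKO had 0 (0.997%), against 1 each with quantile normalization (Col12a1, 0.882%), array weights (Col4a2, 3.31%) and the replicate block (Col12a1, 0.416%). VIPKO against WT in normoxia had 0 (8.65%), against 1 (Col14a1, 10.16%) with only the compared groups in the fit. The interaction had 0 (0.282%), against 7 with array weights (10.29%). The cause of these changes was not tested.

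Leaving out 1 library at a time gave 0 to 0 called collagens for VIPKO against WT in normoxia, 3 to 15 for hypoxia in WT, 0 to 1 for hypoxia in VIPKO, 1 to 6 for VIPKO against WT in hypoxia and 0 to 2 for the interaction. The share of all genes called moved in these fits too. In the same order it ran from 1.66% to 11.78%, 6.38% to 21.75%, 0.406% to 1.81%, 0.162% to 6.18% and 0.0185% to 2.50%. The 1 call for hypoxia in VIPKO came without VIPKO hypoxia 2, VIPKO normoxia 2, WT hypoxia 2 or WT normoxia 5. The interaction had 1 without WT hypoxia 2 (0.240% of all genes called) and 2 without WT hypoxia 4 (2.50%). The log2 ratio of Col1a1 to Col1a2 for hypoxia in WT ran from -0.48 to -0.29 and that of Col3a1 to Col1a1 from 0.29 to 0.42. The replicate numbers did not pair the libraries: of 27 same-numbered pairs, 7 had a correlation of deviations over 0.1, and 7 of 20 libraries matched their own number best. Without whole reads, low genes such as Col6a4 and Col25a1 rest on few reads, and WT hypoxia 4 is the shallowest library.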
